A study of Mus musculus with 22 samples.

Results

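The immediate early genes described here are Fos, Fosb, Junb, Egr1, Egr2, Egr3, Egr4, Arc, Npas4 and Nr4a1, 10 of the 23361 genes in the expression matrix, chosen by name. mRNA was sequenced from microdissected hippocampal CA1 of 22 wild-type female mice of a Swiss Webster by DBA/C57BL6 F1 background, with 1 library per mouse. The groups were mice fed ad libitum (AL) and mice on a calorie-restricted diet (CR), in which the restriction was of carbohydrates, at 5 months of age (n = 5 per diet) and at 15 months of age (n = 6 per diet). Per the study's methods, diets began in young adulthood, CR mice were fed in the morning, and all mice were killed under anesthesia in the afternoon. Levels are FPKM, sequenced fragments scaled to transcript length and to the size of the library, which allow genes of different length to be compared within a library. Libraries are named by group and by the replicate number in the sample titles, which starts at 0.

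Immediate early genes are transcribed within minutes of synaptic activity or growth factor signaling, without new protein synthesis. Calcium and MAP kinase signals reach the transcription factors CREB and SRF, which are bound at these promoters before the stimulus. Most products, such as FOS and JUNB of the AP-1 complex and the zinc finger proteins of the EGR family, are transcription factors that drive a later wave of genes, whereas ARC acts at synapses, where it promotes the removal of AMPA receptors. In hippocampus these transcripts are short-lived, and their level in a tissue sample reports the recent activity of the neurons in it. In bulk tissue, fewer cells that express a gene and less RNA per cell cannot be told apart.

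Promoter windows were available for 7 of the 10 genes in the RefSeq table for GRCm38.p6, each running from 250 bases before to 50 bases after a transcription start, and 4 are shown because these genes carry the results that follow. Fos had the largest difference between ages, Egr2 the widest spread, Npas4 is the neuron-specific member, and Nr4a1 had the closest correlation with another member. Capitals mark the CRE core TGACG on either strand and the CArG box, the site of SRF.
Fos (chr12:85473640-85473939, plus strand): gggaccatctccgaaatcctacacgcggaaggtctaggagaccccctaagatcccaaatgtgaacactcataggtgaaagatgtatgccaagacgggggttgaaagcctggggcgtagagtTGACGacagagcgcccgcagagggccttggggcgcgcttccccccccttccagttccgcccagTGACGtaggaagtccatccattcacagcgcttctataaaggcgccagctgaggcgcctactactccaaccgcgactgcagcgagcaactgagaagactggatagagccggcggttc
Egr2 (chr10:67537619-67537918, plus strand): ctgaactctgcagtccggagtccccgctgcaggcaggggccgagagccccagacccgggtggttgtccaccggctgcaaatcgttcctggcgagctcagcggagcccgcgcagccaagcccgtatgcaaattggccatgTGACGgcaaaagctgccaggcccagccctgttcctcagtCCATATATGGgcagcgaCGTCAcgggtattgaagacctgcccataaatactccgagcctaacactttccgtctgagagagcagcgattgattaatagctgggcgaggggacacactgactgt
Npas4 (chr19:4989922-4990221, minus strand): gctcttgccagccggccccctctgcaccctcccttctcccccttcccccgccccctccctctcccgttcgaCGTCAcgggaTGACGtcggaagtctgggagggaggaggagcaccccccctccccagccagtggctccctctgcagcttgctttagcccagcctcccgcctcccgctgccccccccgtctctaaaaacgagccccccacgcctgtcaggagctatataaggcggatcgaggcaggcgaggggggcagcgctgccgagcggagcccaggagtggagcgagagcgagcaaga
Nr4a1 (chr15:101266596-101266895, plus strand): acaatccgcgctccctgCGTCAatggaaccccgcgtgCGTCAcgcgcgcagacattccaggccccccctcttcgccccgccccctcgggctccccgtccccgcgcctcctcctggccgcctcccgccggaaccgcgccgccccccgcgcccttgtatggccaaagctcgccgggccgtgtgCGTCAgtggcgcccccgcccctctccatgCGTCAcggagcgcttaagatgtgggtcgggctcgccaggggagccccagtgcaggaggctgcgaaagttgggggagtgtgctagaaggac

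The CRE core, TGACG read on both strands, lay in at least 1 window of all 7 genes (Fos, Fosb, Junb, Egr2, Egr4, Npas4 and Nr4a1) and in 9 of their 11 windows. It occurred in 20.9% of 32544 promoter windows of the same length. Nr4a1 had 4 cores, and Fos, Egr2, Egr4 and Npas4 had 2 each. The full palindrome TGACGTCA, which contains the core, was in none of the 11 windows and in 1.8% of all windows. A CArG box was present in 4 overlapping or neighboring windows of Egr2 and in none of the other 6 genes, against 1.64% of all windows. These matches describe the letters of these windows only, and binding was not measured.

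All 10 genes were detected in every library, and all passed the filter for testing, a mean of at least 0.1 FPKM, as did 16978 genes in the matrix. Across the 22 libraries, Arc had the highest median at 60.4 FPKM, followed by Egr1 at 56.8, Junb at 45.8, Nr4a1 at 38.3 and Egr3 at 28.0 FPKM. Egr4 had a median of 16.8 FPKM and Fos 9.16 FPKM, while Fosb (4.74 FPKM), Npas4 (4.49 FPKM) and Egr2 (1.88 FPKM) were the lowest. The ranges of neighbors in this order overlapped. The fold between the highest and the lowest library was 29.7 for Egr2, 18.4 for Fos, 15.0 for Arc and 13.6 for Npas4, and 3.58 for Egr3, the smallest of the 10.

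Within groups, 2 libraries at 15 months stood apart. AL 15 months replicates 4 and 5 held the 2 highest levels of their group for all 10 genes, and were among the 4 highest of all 22 libraries for all 10. In the CR group at 15 months, replicate 1 was the highest for 7 of 10 genes, replicate 5 was above the group mean for 10 of 10, and replicates 2 and 4 were below it for 10 of 10. At 5 months, AL replicate 4 was the lowest of its group for 10 genes and CR replicate 2 for 9. No group had a single library beyond Dixon's 95% critical value for any of the 10 genes. That test takes 1 extreme library at a time. It can miss 2 high libraries that lie together, such as AL 15 months replicates 4 and 5.

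Marker genes of the dissected tissue moved with the high member levels of AL 15 months replicates 4 and 5, and had a mixed order in CR mice at 15 months. Neocortex and subiculum markers (9 genes) and CA1 pyramidal neuron markers (6 genes) were summarized as mean log2(FPKM + 0.1), and their difference is called the region score. The score ranged from -3.70 to -2.11 in AL and from -3.53 to -2.81 in CR mice at 5 months, and from -1.17 to 0.744 in AL and from -3.14 to -0.428 in CR mice at 15 months. AL 15 months replicates 4 and 5 had the 2 highest scores of all libraries, 0.709 and 0.744. CR 15 months replicate 1, the highest CR library for most members, had a low score for its group, -2.36. Replicate 4, the lowest for 6 members, had a high score, -0.446. Replicates 0 and 5 also had high scores, -0.428 and -0.834, but 8 and 10 members above the group mean. Replicates 2 and 3 had scores of -1.49 and -3.14, with 0 and 7 members above it. None of the markers of either list was at 0 throughout a group. Summed CA1 markers lay between 231.5 and 507 FPKM in AL mice at 5 months and between 180 and 278 FPKM in AL mice at 15 months, and summed neocortex and subiculum markers between 82.1 and 124 FPKM and between 136 and 259 FPKM. With the group means in the model, 3.57% of all genes had a slope on the region score at a limma adjusted p under 0.05, and 0 of the 10 members did. Fos (slope 0.71 ± 0.24 SE, limma adjusted p = 0.11) and Fosb (0.42 ± 0.15 SE, limma adjusted p = 0.115) had an unadjusted p under 0.05. That slope was fitted after the data had been seen. Between the ages in AL mice, limma called 4 of 6 CA1 markers lower at 15 months (median log2 difference -1.67). It called 6 of 9 neocortex and subiculum markers higher (1.17). Other marker lists also differed between the ages in AL mice, with 4 of 6 choroid plexus markers (median log2 difference -2.27) and 2 of 5 dentate gyrus granule cell markers (-1.68) called lower in limma at 15 months. Between CR and AL mice at 15 months no marker was called, and the largest medians were 1.64 for 4 erythrocyte and 1.38 for 5 dentate gyrus markers.

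**Figure D1:**
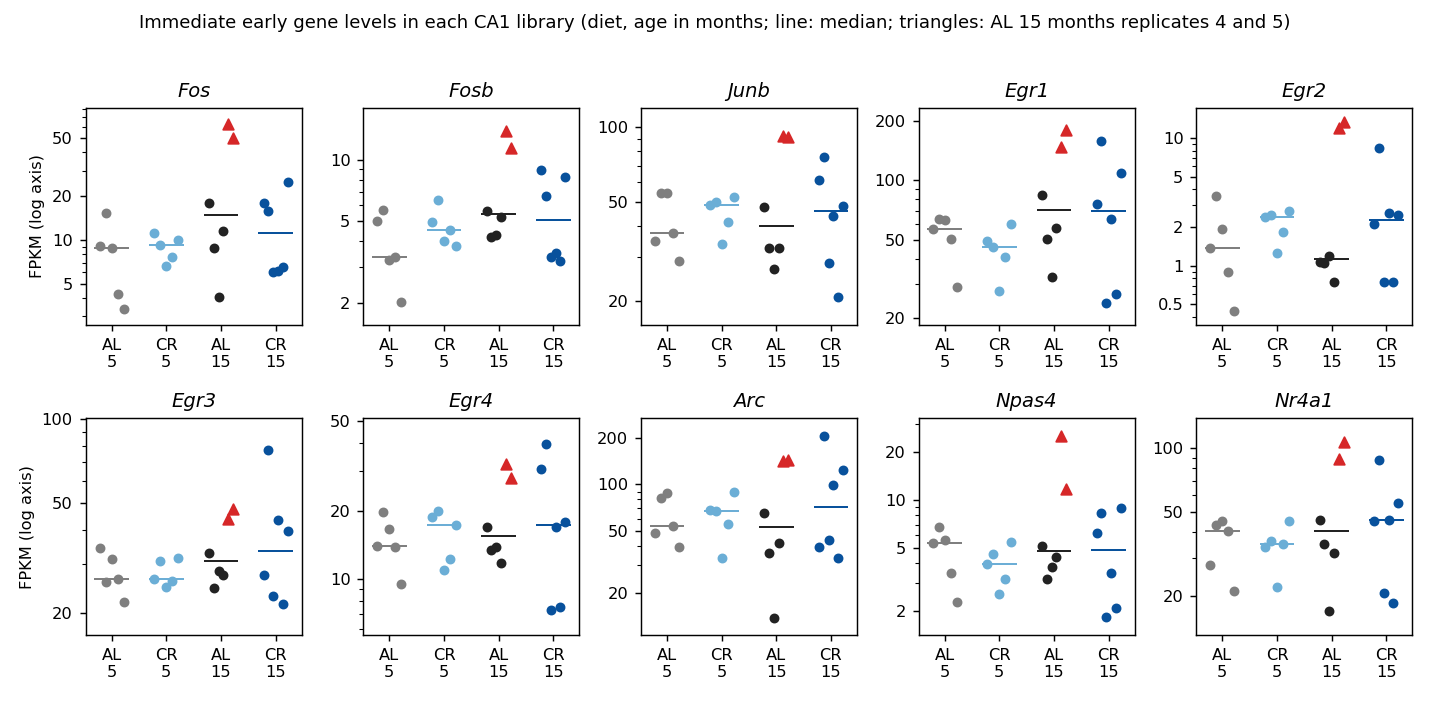
FPKM of each immediate early gene in each of the 22 libraries (log axis) by diet and age in months, with 1 point per mouse and a line at the group median. The triangles, AL 15 months replicates 4 and 5, are the 2 highest AL libraries at 15 months in every panel, and the groups overlap in every panel.

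The first comparison asked whether the immediate early genes change with age in AL mice. Fos, Fosb and 7 other members had higher and Arc had lower mean log2 levels at 15 than at 5 months, but none of the 10 passed the threshold, a Benjamini-Hochberg adjusted p under 0.05 over all genes in limma. In the same fit 20.6% of all 16978 genes were called, 3502 in number. The median log2 difference of the 10 members was 0.48 (range -0.11 to 1.25), beside -0.0018 over all genes tested. The levels of both ages overlapped for all 10 genes. At an unadjusted p under 0.05 there were 2 members, Fos and Fosb, beside 5972 of all 16978 genes. With the region score as a covariate, whose AL ranges at the 2 ages did not overlap, the differences of Fos (-0.69), Fosb (-0.30), Junb (-0.13), Egr2 (-0.18) and Npas4 (-0.40) turned negative, and with erythrocyte and choroid plexus scores as covariates all 10 kept their direction (Fos 0.90, Fosb 0.46). None was called in either fit.

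Fos, on chromosome 12 from 85473890 to 85477273 (GENCODE M21, GRCm38, as for all gene positions here), encodes the prototype FOS subunit of AP-1. In AL mice at 5 months its level was 9.11, 15.2, 8.81, 4.23 and 3.38 FPKM in replicates 0 to 4. In AL mice at 15 months it ranged from 4.09 to 62.3 FPKM with a median of 14.7 FPKM. Replicates 4 (62.3 FPKM) and 5 (50.1 FPKM) exceeded every 5-month library, as replicate 0 did at 17.9 FPKM, and the other 3 lay within the range of the younger group. The log2 difference was 1.25 ± 0.58 SE (limma adjusted p = 0.131). Permuting mice between the ages gave p = 0.139 (exact two-sided permutation test), where 0.00216 is the smallest p that 5 against 6 mice allow. Without replicates 4 and 5, left out after their levels had been seen, the difference was 0.39, and without AL 15 months replicate 2, the lowest Fos library of the group, it was 1.65 (limma adjusted p = 0.0352), the single call of a member under any alternative.

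Fosb, on chromosome 7 from 19302696 to 19310051, encodes another FOS family subunit, whose truncated product accumulates with repeated activity. Its level was 5.05, 5.67, 3.25, 3.35 and 2.02 FPKM in AL replicates 0 to 4 at 5 months and 4.21 to 13.9 FPKM (median 5.44 FPKM) at 15 months. All 6 libraries at 15 months were above the median at 5 months, but 4 of them, with at most 5.64 FPKM, lay within the range of the younger group, and replicates 4 and 5 had 13.9 and 11.5 FPKM. The log2 difference was 0.85 ± 0.35 SE (limma adjusted p = 0.0865), with p = 0.0693 by exact permutation. Without replicates 4 and 5 it was 0.39. Junb, on chromosome 8 from 84974484 to 84978718, encodes a JUN partner of the FOS proteins and averaged 42.0 ± 11.7 FPKM (SD, n = 5) in the younger and 53.9 ± 30.1 FPKM (SD, n = 6) in the older AL mice. Its log2 difference of 0.22 ± 0.34 SE (limma adjusted p = 0.675) turned to -0.25 without these 2 libraries.

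The EGR family showed the same distribution of libraries. Egr2 (chromosome 10, 67535475 to 67542188), known for its role in myelination and in activity-dependent plasticity, had 1.38, 3.51, 1.93, 0.894 and 0.447 FPKM in AL replicates 0 to 4 at 5 months. At 15 months its 4 lower libraries had 0.744 to 1.19 FPKM and replicates 4 and 5 had 12.01 and 13.29 FPKM. The older group therefore had both a lower median (1.13 against 1.38 FPKM) and a higher mean (4.89 against 1.63 FPKM). Its log2 difference was 0.80 ± 0.73 SE (limma adjusted p = 0.457), and -0.37 without replicates 4 and 5. Egr1, also called Zif268 and required for the maintenance of long-term potentiation, had 52.4 ± 14.2 FPKM (SD, n = 5) and 91.7 ± 58.5 FPKM (SD, n = 6), a log2 difference of 0.61 ± 0.46 SE (limma adjusted p = 0.366). It lies on chromosome 18 from 34859823 to 34864984. Egr3 (chromosome 14, 70077203 to 70082614) and Egr4 (chromosome 6, 85511121 to 85513589) had log2 differences of 0.26 ± 0.25 SE and 0.32 ± 0.38 SE (limma adjusted p = 0.494 and 0.575). Without the 2 libraries Egr1, Egr3 and Egr4 had differences of 0.07, 0.03 and -0.04.

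Arc, on chromosome 15 from 74669083 to 74672570, had 48.9, 82.0, 88.0, 54.0 and 39.5 FPKM in AL replicates 0 to 4 at 5 months and 13.8 to 143 FPKM (median 53.5 FPKM) at 15 months. The older group extended both below and above the younger group, with 13.8 FPKM in replicate 2 and 143 FPKM in replicates 4 and 5. The log2 difference was -0.11 ± 0.54 SE (limma adjusted p = 0.904), with an interval of 2 SE on either side from -1.19 to 0.96, and -0.80 without replicates 4 and 5. Npas4, on chromosome 19 from 4984355 to 4990316, encodes a neuron-specific factor that is induced by calcium entry and shapes inhibitory synapses. It had 5.41, 6.73, 5.58, 3.51 and 2.28 FPKM at 5 months and 3.17 to 25.1 FPKM (median 4.77 FPKM) at 15 months in AL mice, where replicates 4 and 5 had 25.1 and 11.7 FPKM and the other 4 at most 5.17 FPKM. Its log2 difference of 0.57 ± 0.49 SE (limma adjusted p = 0.427) was -0.11 without these 2. Nr4a1 (chromosome 15, 101254269 to 101274795), an orphan nuclear receptor, had a log2 difference of 0.40 ± 0.43 SE (limma adjusted p = 0.537), and -0.16 without them.

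**Figure D2:**
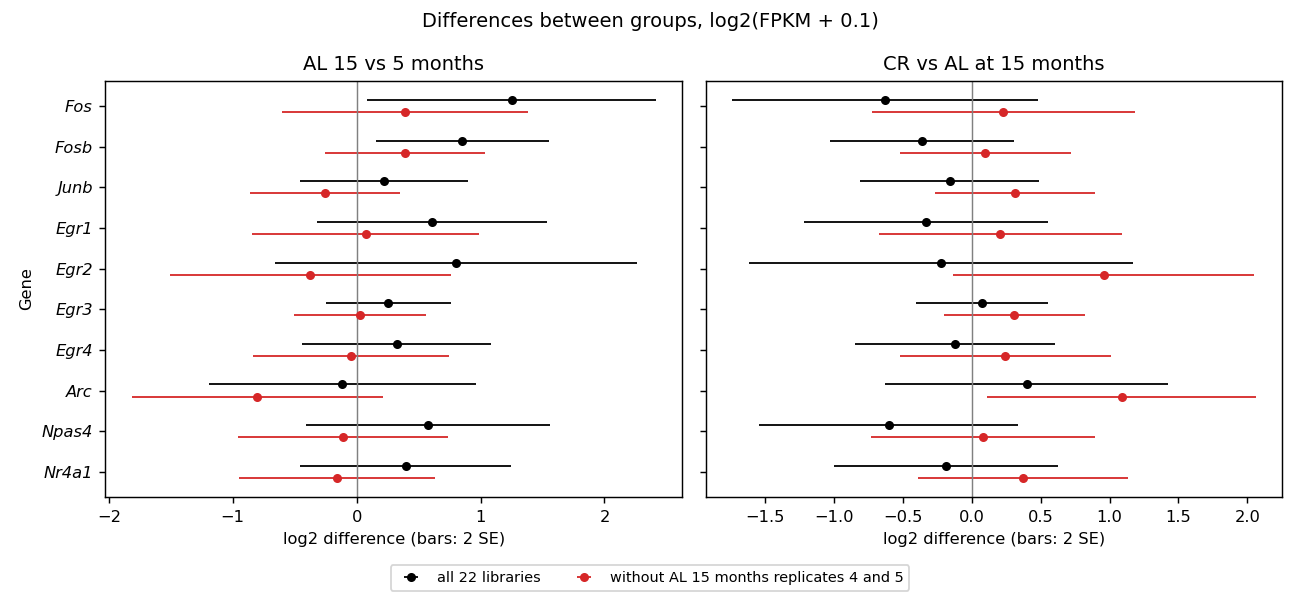
Log2 differences of log2(FPKM + 0.1) for AL mice at 15 against 5 months (left) and CR against AL mice at 15 months (right), with bars of 2 SE, from all 22 libraries (black) and without AL 15 months replicates 4 and 5 (red). These 2 libraries were the highest AL libraries at 15 months for all 10 genes. Leaving them out therefore had to move every point to the left in the left panel and to the right in the right panel.

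The second comparison asked whether CR alters these genes in older mice. At 15 months 8 members had lower and 2, Arc and Egr3, had higher mean log2 levels in CR than in AL mice. Limma called none, where 0.742% of all genes were called. At an unadjusted p under 0.05 there were 0 members, beside 2902 of all genes. The median log2 difference was -0.20 (range -0.63 to 0.40), beside -0.0012 over all genes. With another test on the reads, Cuffdiff, the paper listed Fos as higher with age in AL mice and lower under CR at 15 months. It also listed Npas4 as higher with age in AL mice and Egr2 as lower under CR at 15 months. Fos was between 6.04 and 25.0 FPKM (median 11.1 FPKM) in CR mice and differed by -0.63 ± 0.56 SE (limma adjusted p = 0.59, exact permutation p = 0.403). Npas4 was between 1.84 and 8.89 FPKM (median 4.86 FPKM) and differed by -0.60 ± 0.47 SE (limma adjusted p = 0.529, exact permutation p = 0.351). Their CR medians lay below the AL median for Fos and above it for Npas4 (4.77 FPKM). Arc was between 33.3 and 206 FPKM (median 71.9 FPKM) in CR mice, with 206 FPKM in replicate 1 and 124 FPKM in replicate 5, and differed by 0.40 ± 0.51 SE (limma adjusted p = 0.721, exact permutation p = 0.582). Without AL 15 months replicate 2, the lowest Arc library, this difference was 0.0027. Egr3 was between 21.7 and 77.5 FPKM (median 33.6 FPKM), with its highest level again in replicate 1, and differed by 0.08 ± 0.24 SE (limma adjusted p = 0.898). The other 6 members had log2 differences from -0.36 for Fosb to -0.12 for Egr4. Without AL 15 months replicates 4 and 5, the 8 negative differences became positive, among them Fos at 0.23, Npas4 at 0.08 and Egr2 at 0.96, and without CR 15 months replicates 1 and 5 Arc and Egr3 turned to -0.17 and -0.25.

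At 5 months, when mice had spent less time on the diets, 7 members were higher and 3 lower in CR than in AL mice, with log2 differences from -0.22 to 0.60 and a median of 0.06. Limma called 0 of the 10 members and 0 of all genes (0%), with 0 members and 789 genes at an unadjusted p under 0.05. CR mice at 15 against 5 months had log2 differences from -0.07 to 0.50 (median 0.20), with 0 members called where 3.36% of all genes were, and older CR mice had differences of -0.03 to 0.62 from younger AL mice (median 0.28), with 0 members called where 3.12% of all genes were. In both, 0 members had an unadjusted p under 0.05 in limma, beside 3049 and 3275 of all genes in the order given. These comparisons share groups with those above. The difference between the age effects of the diets ranged from -0.93 for Fos to 0.40 for Arc (SE 0.36 to 1.03). Limma called 0 members and 0 genes (0%) for it, with 0 members and 1301 genes at an unadjusted p under 0.05. The standard errors of the member differences lay between 0.24 and 0.76 for all group comparisons on the log2 scale. Even differences of more than 2 SE were not called, as for Fos (1.25 ± 0.58 SE) and Fosb (0.85 ± 0.35 SE) with age in AL mice. Differences well above these standard errors can therefore have been missed.

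Most members had a wide spread between libraries of a group. The SD of log2(FPKM + 0.1) within groups, over all 22 libraries, was 1.28 for Egr2, 1.02 for Fos, 0.94 for Arc and 0.86 for Npas4, and 0.44 for Egr3, the smallest. The median of this SD over the 16978 genes tested was 0.22. Egr2 stood at percentile 97.5 of the genes tested and Egr3 at percentile 81.0, with the other 8 in between. The SD was higher at 15 than at 5 months for 10 of 10 members in AL mice, as it was for 64.7% of all genes, and for 10 of 10 members in CR mice, as it was for 74.2% of all genes. In AL mice the SD of Fos was 0.87 at 5 and 1.50 at 15 months, that of Arc 0.49 and 1.29, and that of Egr2 1.03 and 1.84. In CR mice it was 0.30 and 0.91 for Fos, 0.15 and 0.69 for Egr3 and 0.42 and 1.24 for Egr2. The median ratio of the SDs at 15 and 5 months was 1.81 for the members and 1.25 for all genes in AL mice, and 2.60 for the members and 1.46 for all genes in CR mice. AL 15 months replicates 4 and 5, the 2 highest of their group for all 10 genes, weigh heavily in the AL SDs. Their group's other libraries lay between 0.744 and 1.19 FPKM for Egr2, where AL mice at 5 months had 0.447 to 3.51 FPKM. For Arc those libraries still ranged from 13.8 to 65.2 FPKM, against 39.5 to 88.0 FPKM at 5 months. The members varied together, so the 10 rises are not separate observations. These spreads are descriptions without a test.

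**Figure D3:**
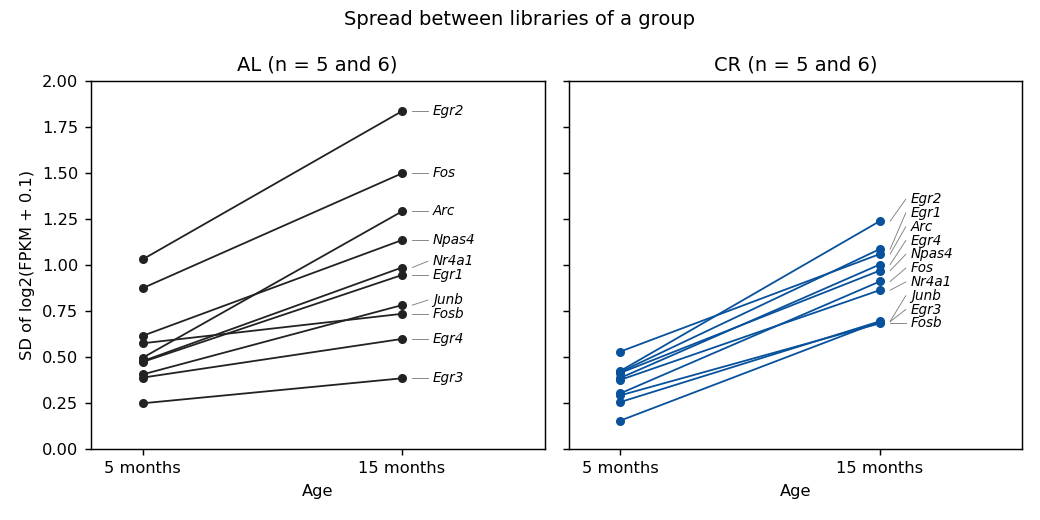
SD of log2(FPKM + 0.1) between libraries of a group at 5 months (n = 5) and 15 months (n = 6), with 1 line per gene, in AL mice (left) and CR mice (right). All 20 lines rise, from 0.15 to 1.03 at 5 months to 0.38 to 1.84 at 15 months. The left panel includes AL 15 months replicates 4 and 5, the 2 highest of their group for all 10 genes.

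Within groups the 10 genes varied together from mouse to mouse. For each library the deviation from its group mean was taken, so that age and diet do not enter, and the deviations were correlated over the 22 libraries for the 45 pairs of members. Pearson r was positive for all 45 pairs, from 0.55 to 0.97 with a median of 0.85, and Spearman rho was from 0.57 to 0.95 with a median of 0.83. With libraries permuted within groups, the largest of the 45 p was 0.027 for r and 0.0223 for rho, and 12 pairs had a p for r of 1e-05, the smallest that these permutations can give. After omission of the 2 libraries farthest from the median of the first gene of a pair, r stayed positive for all 45 pairs, from 0.46 to 0.96 with a median of 0.81.

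The closest pair was Egr1 and Nr4a1 (r = 0.97, permutation p = 1e-05; rho = 0.92, permutation p = 1e-05; r = 0.96 without the 2 farthest libraries). With the group means in the model, 1 log2 unit of Egr1 went with 0.89 ± 0.06 SE log2 units of Nr4a1 (limma adjusted p = 2.45e-08 over all genes). Junb and Nr4a1 had r = 0.95 (permutation p = 1e-05) and rho = 0.92 (permutation p = 1e-05), and Arc and Nr4a1 had r = 0.93 and rho = 0.90 (permutation p = 1e-05 for both). The least close pairs joined the FOS family with Egr3 and Arc. Fosb and Egr3 had r = 0.55 (permutation p = 0.027) and rho = 0.59 (permutation p = 0.0199), with r = 0.46 without the 2 farthest libraries. Fos and Egr3 had r = 0.55 (permutation p = 0.0168) and rho = 0.62 (permutation p = 0.0126), and Fosb and Arc had r = 0.60 (permutation p = 0.0164) and rho = 0.57 (permutation p = 0.0223). Among the libraries, CR 15 months replicates 0 and 3 held these genes apart in opposite directions. Replicate 0 had 18.0 FPKM of Fos and 8.94 FPKM of Fosb, above the group medians of 11.1 and 5.08 FPKM. It had 39.7 FPKM of Arc and 27.6 FPKM of Egr3, below the group medians of 71.9 and 33.6 FPKM. Replicate 3 had 6.13 FPKM of Fos and 3.50 FPKM of Fosb, below these medians, and 99.9 FPKM of Arc and 43.4 FPKM of Egr3, above them.

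**Figure D4:**
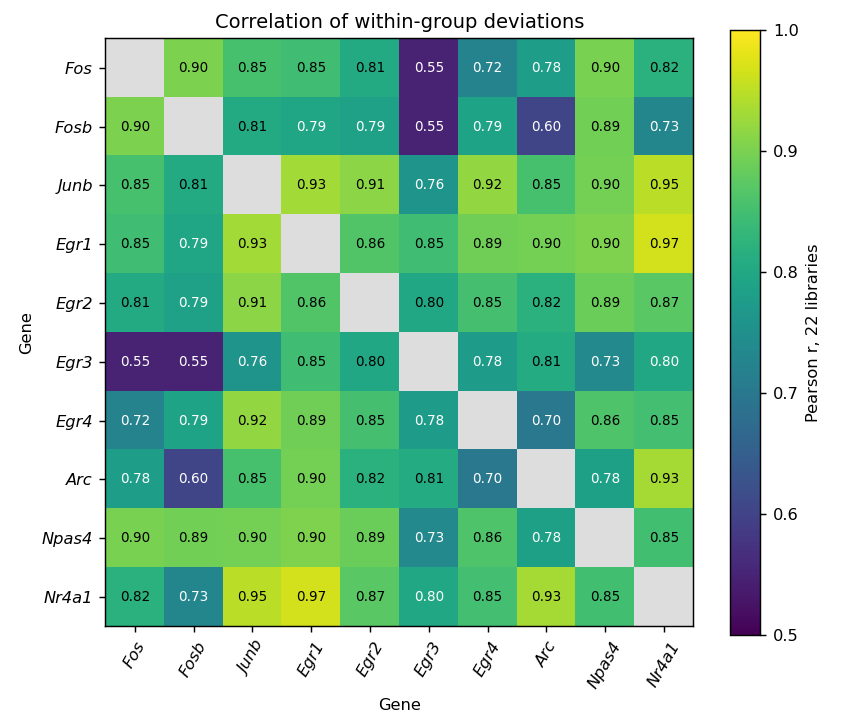
Pearson r of the within-group deviations of log2(FPKM + 0.1) over 22 libraries for the 45 pairs of immediate early genes. Egr1 with Nr4a1 is the highest at 0.97, and Egr3 with Fos or Fosb the lowest at 0.55.

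The relation was also computed in each group of 6 mice. In AL mice at 15 months r was from 0.79 to 0.99 (median 0.93), and the exact two-sided permutation p of r was under 0.05 for 43 of 45 pairs. Replicates 4 and 5, the 2 highest for all 10 genes, weigh heavily in r among 6 mice. By Spearman rho, which uses ranks, far fewer pairs had an exact permutation p under 0.05. Many of the 43 pairs were above 0.05 by that measure. For Fos and Egr2 r was 0.86 (exact permutation p = 0.0486) and rho 0.54 (exact permutation p = 0.297). For Egr1 and Arc rho was 1.0 (exact permutation p = 0.00278). In CR mice at 15 months r was from 0.37 to 0.99 (median 0.86), and the exact permutation p of r was under 0.05 for 24 of 45 pairs. Far fewer pairs were under 0.05 by the exact permutation p of rho in these mice as well. There rho was 0.77 for Fos and Fosb (exact permutation p = 0.103) and 1.0 for Egr2 and Egr3 (exact permutation p = 0.00278). The largest exact permutation p of r was 0.0736 in AL and 0.469 in CR mice, and 0.00139 is the smallest that 6 mice allow for r without ties. With only the 10 libraries of 5 months, the mean r of the 45 pairs was 0.75, compared with 0.82 over all libraries. Without AL 15 months replicates 4 and 5 and CR 15 months replicates 1 and 5, it was 0.68.

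**Figure D5:**
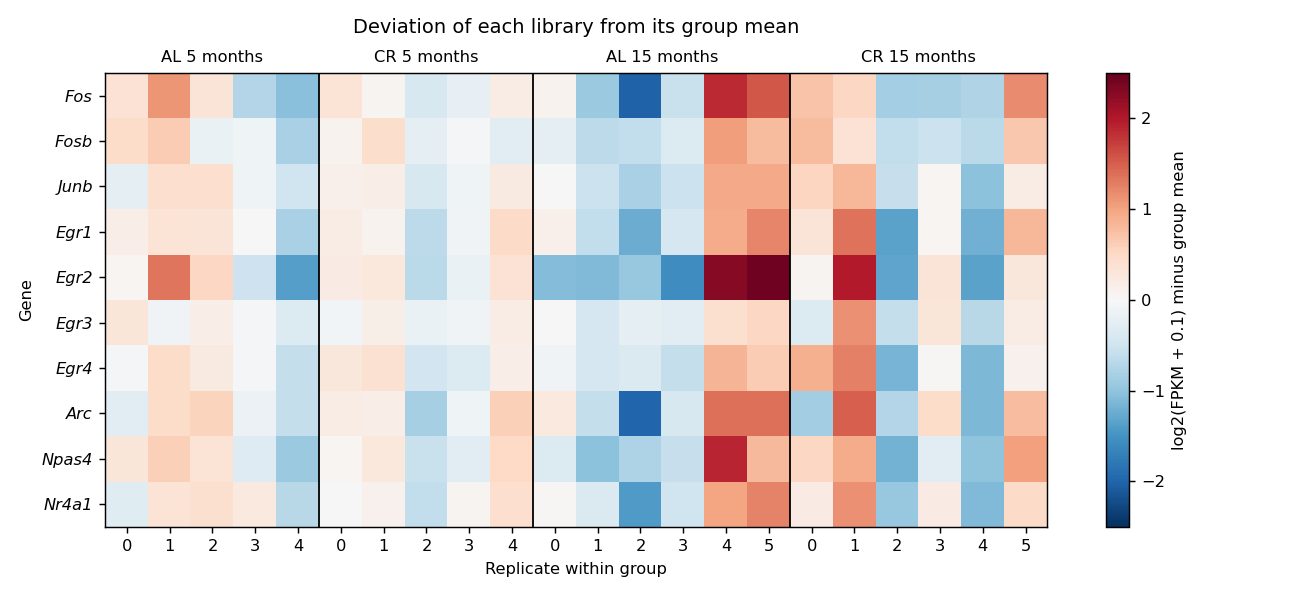
Deviation of log2(FPKM + 0.1) from the group mean for each immediate early gene (rows) in each library (columns, by group and replicate), red above and blue below the mean. AL 15 months replicates 4 and 5 and CR 15 months replicate 1 are above the mean for all 10 genes, and CR 15 months replicates 2 and 4 below it.

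To set the covariation against all genes, the level of each member in turn was added to the group means and its slope was tested for the other genes. Of 90 ordered pairs of members, 81 had a positive slope at a limma adjusted p under 0.05. Of all 16977 genes tested, those with such a positive slope were 0.719% for Fos, 0.324% for Fosb, 0.23% for Junb, 0.442% for Egr1, 0.188% for Egr2, 0.124% for Egr3, 0.112% for Egr4, 0.607% for Arc, 0.306% for Npas4 and 0.377% for Nr4a1. Junb, Egr1, Egr2, Npas4 and Nr4a1 each had 9 of 9 other members among the called genes, Fos and Arc had 8, Fosb and Egr4 had 7 and Egr3 had 6. The level of Egr4 called 19 genes with a positive slope in the whole matrix, of which 7 were members. The 9 ordered pairs not called were Fos with Egr3, Fosb with Egr3 and with Arc in both orders, and Npas4 with Egr3 and Arc and Fos with Egr4 in 1 order. Without AL 15 months replicate 5 there were 60 called pairs and without AL 15 months replicate 4 there were 62. Without both there were 40, without CR 15 months replicates 1 and 5 there were 68, and without all 4 there were 14. With the libraries of 5 months alone there were 0 at the adjusted threshold in limma and 66 at an unadjusted p under 0.05, and with those of 15 months alone there were 26. Slopes were positive for all 90 ordered pairs in each of these settings. With the region score as a covariate there were 88.

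Of 13829 other genes with a mean of at least 1 FPKM, Ier2 was the closest to the mean within-group deviation of the 10 members (r = 0.92 over 22 libraries). It was followed by Camkk2 (0.90), Trib1 (0.86), Dusp1 (0.86), Hrasls (0.85), Atp2b2 (0.84), Sertad1 (0.83), Gca (0.83), Flrt2 (0.83) and Csrnp1 (0.81), all given as descriptions. Ier2 and Csrnp1 are immediate early nuclear proteins, and Dusp1, an immediate early phosphatase, switches off MAP kinases. Camkk2 encodes a calcium-dependent kinase upstream of CaMKIV and AMPK, and Atp2b2 a plasma membrane calcium pump. Ier2 ranged from 2.02 to 14.9 FPKM and Dusp1 from 9.54 to 59.5 FPKM. Without the 2 libraries farthest from the median, r was 0.88 for Ier2, 0.86 for Camkk2 and 0.79 for Dusp1.

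Other genes of the activity-dependent program were taken from 5 lists. Of 20 other immediate early transcription factors, 17 were ranked, 15 had a positive r with the member mean and the median r was 0.48. Among them Jun, the main partner of FOS in AP-1, had r = -0.56, and Myc had r = -0.28. Of 20 other immediate early effectors, 18 of 19 ranked had a positive r, with a median of 0.50 and Zfp36 lowest at -0.31. The 10 delayed activity-regulated genes had a median r of 0.25, Bdnf at 0.23 among them, and the 17 upstream regulators a median of 0.20. The 7 partners and corepressors had a median of 0.23, from 0.70 for Nab2, a corepressor of EGR proteins that they induce, to -0.70 for Rxra, a retinoid receptor that pairs with NR4A1. Over all ranked genes 51.0% had a positive r and the median was 0.0070.

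In AL mice 15 of 73 tested genes of these lists changed with age, a share near the 20.6% of all genes. Of 19 other immediate early transcription factors tested, 2 rose and 0 fell, and of 20 effectors 3 rose and 3 fell, where 10.7% of all genes were called higher and 9.97% lower. Klf6, a zinc finger factor, rose from 9.48 ± 1.49 FPKM (SD, n = 5) at 5 months to 15.8 ± 3.77 FPKM (SD, n = 6) at 15 months (log2 difference 0.71 ± 0.19 SE, limma adjusted p = 0.0115). Per1, a clock gene that is also induced by activity, rose by 0.57 ± 0.17 SE (limma adjusted p = 0.0219). Among the effectors, the phosphatase gene Dusp2 (0.96 ± 0.26 SE) and the kinase genes Sik1 (0.94 ± 0.22 SE) and Plk3 (0.71 ± 0.19 SE) rose, with limma adjusted p of 0.015, 0.00569 and 0.0129. Plk2 fell by 0.59 ± 0.19 SE, Gadd45g by 0.39 ± 0.12 SE and Rheb by 0.22 ± 0.07 SE, with limma adjusted p of 0.0357, 0.0308 and 0.0416.

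Of 10 delayed genes, Pcsk1, a prohormone convertase, rose (0.97 ± 0.29 SE, limma adjusted p = 0.0227) and Inhba, the activin A subunit, fell by 0.97 ± 0.32 SE (limma adjusted p = 0.0387). Of 17 upstream regulators, 3 rose and 1 fell. Mef2c, a factor that restrains synapse number, rose from 21.0 ± 5.67 FPKM (SD, n = 5) to 79.5 ± 39.5 FPKM (SD, n = 6) in AL mice (log2 difference 1.82 ± 0.28 SE, limma adjusted p = 0.000415), and was also higher in CR mice at 15 than at 5 months (1.28 ± 0.28 SE, limma adjusted p = 0.0126). Mapk3 rose by 0.54 ± 0.16 SE and Crebbp by 0.37 ± 0.13 SE, and Mkl1, a coactivator of SRF, fell by 0.45 ± 0.12 SE, with limma adjusted p of 0.0267, 0.0493 and 0.012. Of 7 partners and corepressors, Arnt, which pairs with NPAS4, rose by 0.40 ± 0.09 SE (limma adjusted p = 0.00569). The median log2 differences of the lists were 0.28, 0.07, -0.29, 0.06 and 0.12 in the order given, beside 0.48 for the members. Between CR and AL mice at 15 months, limma called 0 of the 73 genes, where 0.742% of all genes were called. It called 1 of them without CR 15 months replicate 5. At an unadjusted p under 0.05 there were 15 of the 73, beside 2902 of all 16978 genes. The region, choroid plexus and dentate gyrus scores moved with age in AL mice beside these differences. The AL ranges of the region score at the 2 ages did not overlap, so a fit with it separates age poorly from the score. The share of all genes called in fits with covariates is not given here. The counts of such fits therefore cannot be read as particular to these lists. With the region score as a covariate 0 of the 73 genes were called for age in AL mice (8 at an unadjusted p under 0.05; 2 were called with erythrocyte and choroid plexus scores as covariates), the difference of Mef2c was 0.47, that of Klf6 -0.09 and that of Per1 0.61, and in CR mice the difference of Mef2c was 0.45 (limma adjusted p = 0.387). Without AL 15 months replicates 4 and 5, 14 of the 73 genes were called, Mef2c (1.40) and Sik1 (0.67, limma adjusted p = 0.038) among them, and Klf6 (0.50, limma adjusted p = 0.071) and Per1 (0.48, limma adjusted p = 0.0694) were not.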

How the data were processed

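CA1 mRNA libraries from 22 mice were prepared with a TruSeq kit. The authors aligned reads to mm10 with TopHat, removed duplicates with Picard and estimated the deposited FPKM with Cufflinks, whose corrections can shift levels of low or overlapping genes. Strand use is not given in the sources used here. Read counts could not be recovered from FPKM, so the number of reads behind a single value is not known here and precision rests on how much mice of a group differ.

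Testing was on genes averaging 0.1 FPKM or more, as log2(FPKM + 0.1), a scale that understates changes of low genes. The 4 groups were fitted together in limma 3.58.1 (R 4.3.3, trended eBayes, two-sided), with Benjamini-Hochberg adjustment over all genes and calls under 0.05. Single genes were also compared by exact permutation tests of group means, and within-group correlations by 100000 permutations within groups (scipy 1.17.1 and numpy 2.4.6 in Python 3.11.15). A log2 difference is the first group minus the second. Figures were drawn with matplotlib 3.10.9, and steps were tested on simulated data.

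The members, lists and tests were chosen with earlier results of these data known. Named genes are the 10 members, up to 3 called genes per list and direction with the largest change, and the 10 genes closest to the members. Jun, Myc, Zfp36, Bdnf, Nab2, Rxra and Agt were named after their values were seen. Alternatives were other pseudocounts (1 and 0.01), filters, scalings, covariates, a replicate block, eBayes without trend, the compared groups alone and each library left out. Omission of pairs of 15-month libraries and the region score slope were added after seeing the data. NanoString data were not analysed here.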

Additional observations from a re-analysis of the deposited data

How the results depend on the processing

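The age difference of the 10 members in AL mice gave 0 calls in limma, with 2 members and 5972 genes at an unadjusted p under 0.05. It gave 0 under every alternative except the omission of AL 15 months replicate 2, with 1 call (Fos). Leaving out single libraries thus gave 0 to 1. The other 5 contrasts gave 0 calls under all alternatives. With the region score as a covariate, the age difference in AL mice became -0.69 for Fos, -0.30 for Fosb, -0.13 for Junb, -0.18 for Egr2 and -0.40 for Npas4, and CR against AL at 15 months became 0.21 for Fos, 0.14 for Fosb, 0.21 for Egr2 and -0.029 for Egr3. Without AL 15 months replicates 4 and 5, the age difference became -0.25 for Junb, -0.37 for Egr2, -0.045 for Egr4, -0.11 for Npas4 and -0.16 for Nr4a1, and CR against AL became 0.23 for Fos, 0.10 for Fosb, 0.31 for Junb, 0.21 for Egr1, 0.96 for Egr2, 0.24 for Egr4, 0.080 for Npas4 and 0.37 for Nr4a1. Without CR 15 months replicates 1 and 5 it was -0.25 for Egr3 and -0.17 for Arc. Scaled without small RNA genes, the age difference of Arc was 0.00015. With single libraries left out, it ranged from -0.39 to 0.28, and CR against AL ranged from -0.33 to 0.046 for Junb, -0.62 to 0.27 for Egr2, -0.15 to 0.21 for Egr3, 0.0027 to 0.68 for Arc, -0.37 to 0.11 for Egr4 and -0.47 to 0.062 for Nr4a1. Of 510 values of single members in these contrasts, 463 kept their direction and side of the threshold. Of the 73 list genes tested for age in AL mice 15 were called, and, under alternatives applied to them after seeing the data, 0 with the region score and 2 with erythrocyte and choroid plexus scores as covariates, 24 with the 2 groups fitted alone, and 9 to 15 with single libraries of these groups left out (9 without AL 5 months replicate 2). The cause of these changes was not tested. The share of all genes called under these alternatives is not given here, so the list counts cannot be read as particular to the lists.

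Of 90 ordered pairs, 81 were called. The number was 39 with the replicate block, 0 with 5 months alone (66 at an unadjusted p under 0.05), 26 with 15 months alone, 40 without AL 15 months replicates 4 and 5, 14 without both pairs of 15-month libraries, and 60 to 83 with single libraries left out. The labels give no shared litter or day for a replicate number. Of 31 library pairs sharing a number, 2 had deviations correlated above 0.1 (range -0.139 to 0.163). These correlations cannot show whether mice with the same number shared a day or handling, which was not tested. The block left 0 members called in each contrast. The mean r of the 45 pairs, 0.82 over all libraries, was 0.75 with 5 months alone, 0.92 in AL mice at 15 months alone, 0.68 without both pairs, and 0.80 to 0.86 with single libraries left out. Sample number limits the precision of all values, and counting error per gene could not be computed from FPKM.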

Other observations

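The genes that moved most against the members within groups were Agt, Krt2 and Rab27a, the 3 lowest of 13829 by correlation with the mean deviation of the members, named after their values were seen. Agt, which encodes angiotensinogen and is made by astrocytes in brain, had r = -0.89 over 22 libraries and -0.84 without the 2 farthest. It had 8.86 and 9.20 FPKM in AL 15 months replicates 4 and 5, against a group median of 17.5 FPKM, and ranged from 8.86 to 32.8 FPKM in all. Krt2, a keratin gene, had r = -0.85 and had 0.0651 and 0.441 FPKM in these libraries, against a group median of 2.56 FPKM. Rab27a, which encodes a small GTPase of vesicle transport, had r = -0.81 with levels between 2.39 and 5.88 FPKM. With the group means in the model, the level of Arc had a negative slope at a limma adjusted p under 0.05 for 82 genes and a positive one for 103, and the level of Fos for 67 and 122 genes. These are descriptions of the same libraries that gave the correlations of the members, and what links the genes was not tested.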
